A study of Mus musculus with 2 samples.

Results

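The genes described here form the transforming growth factor beta (TGF-beta) and activin axis. They are 10 genes of the 32285 listed in the count matrices, taken by symbol: the ligands Tgfb1, Tgfb2, Tgfb3 and Inhba, the receptors Tgfbr1, Tgfbr2 and Tgfbr3, the intracellular inhibitors Smad7 and Skil, and the target gene Tgfbi. All 10 were measured by single-cell RNA sequencing in unsorted live cells of mouse pancreatic tumours, which had grown in the pancreas from injected KPC cells, a cancer cell line of genetically engineered mice. The hosts of both groups carried a floxed MCT1 gene (Slc16a1, a lactate and proton carrier). In the FLOX group that gene was kept, and in the MCT1-KO group, named PSCs-MCT1-/- by the study, tamoxifen was given to switch on a Cre enzyme driven by the Col1a2 promoter, which is active in collagen-producing mesenchymal cells and not in pancreatic stellate cells (PSCs) alone. The injected cancer cells and the immune cells of the host were not the target of the deletion. The study names corn oil as the alternative injection, so tamoxifen itself cannot be told apart from the deletion. All of its mice were male. The age of the hosts, and whether animals were pooled for a library, are not given in the sources used here.

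There was 1 library in each group, so no comparison below has a replicate and no test between groups could be made. Levels are given as CPM, a gene's unique molecular identifiers (UMIs) per 1000000 UMIs of the same cells, summed over the cells of a class in a library. The word ratio stands for the CPM in the library labelled MCT1-KO divided by that in the FLOX library. Each interval is an exact 95% Poisson or binomial interval and covers counting error only. Intervals of levels and ratios leave out the spread between cells, and all leave out that between animals. A gene was counted as higher or lower when the ratio was past 1.5-fold in either direction, and it was compared only where both libraries together held 50 UMIs or more.

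The filter of 500 UMIs, 200 to 5000 genes and up to 8% mitochondrial UMIs kept 8739 barcodes with a median of 4069 UMIs in the FLOX library, and 11689 with a median of 3706 in the library labelled MCT1-KO. Of the kept barcode sequences, 59 occurred in both libraries. The 7 cell classes compared here were named from marker genes, and the tumour/ductal-like class is the least certain of them, since its 5 clusters each had only 5 or 6 of 12 tumour/ductal markers in 10% of cells or more, 3 of the 5 scored higher for PSC and fibroblast markers than for any other list, and those markers summed to 2301 and 1483 CPM in the class. Acinar genes, which mark enzyme-secreting pancreas cells, reached 17110 CPM in the near-empty barcodes of 10 to 100 UMIs of the library labelled MCT1-KO and 325 CPM in those of the FLOX library. Heat shock genes in tumour/ductal-like cells stood at 4427 CPM in FLOX and at 1252 CPM in the other. Checks of the ratios of the 10 genes were run in the 4 main classes (tumour/ductal-like, macrophage/monocyte-like, PSC/fibroblast-like and T/NK-like). Leaving mitochondrial, acinar, heat shock and immediate-early genes out of the total moved 0 of 36 ratios beyond their counting interval. That changes only the denominator, of which these genes are a small part, so it does not test heat shock or acinar RNA. Subtracting free RNA, estimated from the acinar genes, moved 24 of 33. The estimated free share was 13.3% in FLOX and 4.22% in the other for tumour/ductal-like cells, and 36.3% and 13.1% for macrophage/monocyte-like cells. It was 33.0% and 10.5% for PSC/fibroblast-like cells and 41.1% and 15.8% for T/NK-like cells, so unequal amounts were taken from each library.

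Slc16a1 itself did not show the deletion. In PSC/fibroblast-like cells it had 55 UMIs (26.0 CPM) in FLOX and 112 UMIs (37.5 CPM) in the library labelled MCT1-KO, a ratio of 1.44 (1.04 to 2.03). Reads of a 3′ kit can come from outside the deleted part, and which exons were deleted is not given in the sources used here, so the transcript neither checks nor contradicts the deletion. Every direction below is therefore one between libraries as labelled.

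TGF-beta ligands are secreted in a latent form, tied to matrix by latent TGF-beta binding proteins (the Ltbp genes), and are set free by integrins or proteases. Free ligand binds TGFBR2, which recruits and switches on TGFBR1, and the pair phosphorylates SMAD proteins that enter the nucleus. TGFBR3 (betaglycan) is a coreceptor that presents ligand, TGF-beta 2 above all. Activin A, a dimer of the Inhba product, uses its own receptors but the same SMAD proteins, and follistatin (Fst) traps it. SMAD7 and SnoN (the product of Skil) close the loop as inhibitors that the pathway itself can induce, and TGFBI is a secreted matrix protein named for its induction by TGF-beta. In the pancreas the pathway is best known for turning stellate cells and fibroblasts into matrix-producing myofibroblasts.

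For 8 of the 10 genes 1 class stood above the next beyond counting error in both libraries (the exceptions were Tgfb3 and Tgfbr2). The share of UMIs is given for 3 of them, each in the class with its highest level. Tumour/ductal-like cells gave 86.8% of all Inhba UMIs in FLOX and 88.3% in the other, against 55.6% and 66.8% of all UMIs. Macrophage/monocyte-like cells gave 87.5% and 85.5% of the Tgfbi UMIs with 25.5% and 14.6% of all UMIs. PSC/fibroblast-like cells, with 3.46% and 3.67% of all UMIs, gave 66.4% and 63.8% of those of Tgfb2. So most of the activin subunit was read in tumour/ductal-like cells, most of the matrix target in macrophages and most of Tgfb2 in PSC/fibroblast-like cells, in both libraries. These shares are over the kept barcodes, and the limit of 5000 genes left out 2062 and 1231 barcodes, of which 1969 and 1201 were tumour/ductal-like when they were added back.

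**Figure D1:**
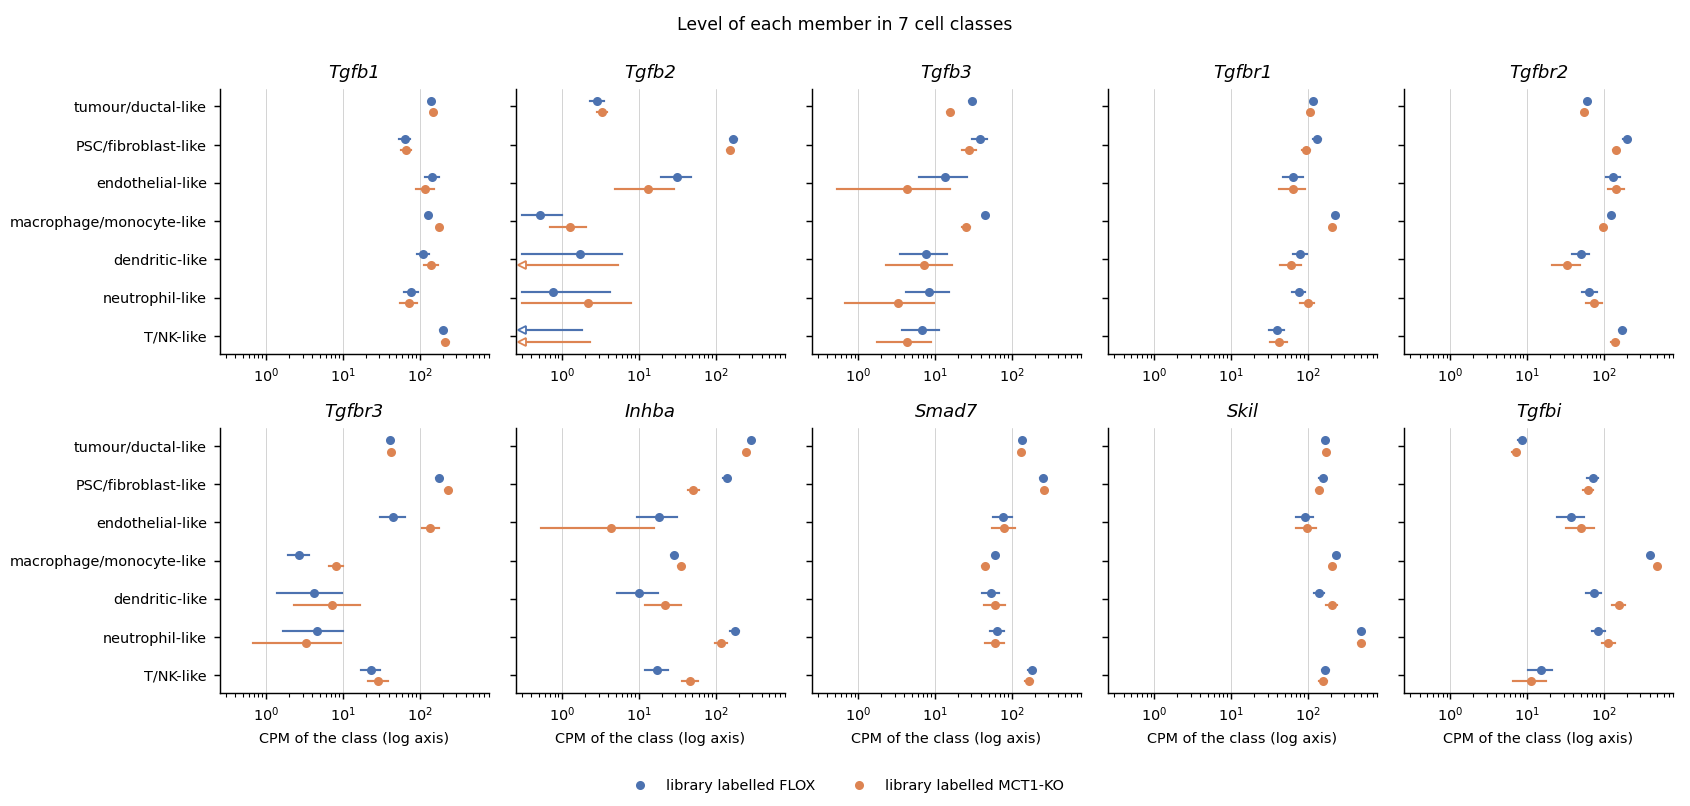
Level of each of the 10 genes (CPM, log axis) in 7 cell classes, with FLOX and MCT1-KO points side by side and bars for the 95% counting interval. Inhba peaks in tumour/ductal-like cells, Tgfbi in macrophage/monocyte-like cells and Tgfb2 in PSC/fibroblast-like cells in both libraries.

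The promoters of these 3 genes are shown because each of them is highest in a different class. They are the 250 bases before and 50 after each RefSeq start on mouse build GRCm38.p6, written 5′ to 3′ on the gene's strand: chr13:16011601-16011900 (+) for Inhba, chr13:56609336-56609635 (+) for Tgfbi and chr1:186705940-186706239 (-) for Tgfb2. Capitals mark matches on either strand to the SMAD box CAGAC, to the AP-1 motif TGANTCA, to the TATA box TATAAA and to the ETS motif GAGGAA (read on the other strand as TTCCTC). None of the capital stretches overlap.
Inhba: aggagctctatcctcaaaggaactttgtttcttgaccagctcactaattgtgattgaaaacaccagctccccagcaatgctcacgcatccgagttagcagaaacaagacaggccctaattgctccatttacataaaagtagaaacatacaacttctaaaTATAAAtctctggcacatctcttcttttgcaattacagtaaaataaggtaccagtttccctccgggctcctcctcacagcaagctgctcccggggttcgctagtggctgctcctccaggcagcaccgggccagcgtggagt
Tgfbi: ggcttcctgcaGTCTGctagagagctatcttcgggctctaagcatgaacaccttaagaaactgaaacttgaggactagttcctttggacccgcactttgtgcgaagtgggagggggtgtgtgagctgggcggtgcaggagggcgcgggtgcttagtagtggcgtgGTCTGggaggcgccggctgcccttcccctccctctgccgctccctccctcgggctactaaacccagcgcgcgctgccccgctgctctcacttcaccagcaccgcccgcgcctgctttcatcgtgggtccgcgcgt
Tgfb2: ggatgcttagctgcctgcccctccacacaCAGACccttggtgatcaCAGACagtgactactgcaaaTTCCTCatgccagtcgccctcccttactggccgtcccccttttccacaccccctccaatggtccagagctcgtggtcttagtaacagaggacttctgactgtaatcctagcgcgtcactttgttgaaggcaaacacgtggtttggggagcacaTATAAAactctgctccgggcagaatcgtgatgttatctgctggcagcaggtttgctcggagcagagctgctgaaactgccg

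The Inhba window held a TATA box at position -91 and none of the other motifs. The Tgfbi window held the SMAD box at -239 and -85, and that of Tgfb2 held it at -221 and -204, with an ETS motif at -184 and a TATA box at -31 (positions are those of the first base, relative to the start). Such matches are common: of 32851 promoter windows of this length, 49.6% held the SMAD box, 7.81% the AP-1 motif, 13.6% the TATA box and 28.3% the ETS motif. They describe letters in the window, and no binding was measured.

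On build GRCm38 with GENCODE vM21 names, all 10 are protein-coding genes. The ligand genes lie at chr7:25687002-25705077 (Tgfb1), chr1:186622792-186705989 (Tgfb2), chr12:86056745-86079041 (Tgfb3) and chr13:16011851-16031621 (Inhba). The receptor genes lie at chr4:47353222-47414931 (Tgfbr1), chr9:116084293-116175360 (Tgfbr2) and chr5:107106570-107289629 (Tgfbr3). Smad7 is at chr18:75367529-75395935, Skil at chr3:31095058-31122577 and Tgfbi at chr13:56609523-56639562. UMIs were counted per gene, so no exon or isoform can be told from them.

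Tgfb1, the most widely used of the TGF-beta ligands, had UMIs in every class. It was highest in T/NK-like cells, at 203 CPM in FLOX and 216 CPM in the library labelled MCT1-KO, above the next class beyond counting error in both. Macrophage/monocyte-like cells followed with 129 and 177 CPM, tumour/ductal-like cells with 139 and 149 CPM, and these could not be ordered against endothelial-like cells (147 and 119 CPM) or dendritic-like cells (112 and 143 CPM). PSC/fibroblast-like cells, with 64.2 and 66.6 CPM, and neutrophil-like cells, with 78.2 and 72.4 CPM, were lowest and did not differ beyond counting error. The near-empty barcodes of 10 to 100 UMIs held more, 98.6 and 104 CPM, so Tgfb1 in those classes is not set apart from free RNA. The ratio in macrophage/monocyte-like cells, 1.37 (1.29 to 1.46), was short of 1.5-fold. There the share of cells with a Tgfb1 UMI, after each cell was thinned to 1000 UMIs, was 12.05% and 16.4% (46.1% and 53.4% without thinning).

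Tgfb2 was the ligand of the PSC/fibroblast-like class, which includes mesothelial-like cells. PSC/fibroblast-like cells held it at 170 CPM (361 UMIs) in FLOX and 154 CPM (461 UMIs) in the other, a ratio of 0.905 (0.787 to 1.04). Endothelial-like cells came next with 31.8 and 13.2 CPM from 21 and 6 UMIs, and tumour/ductal-like cells held 2.88 and 3.31 CPM. Neutrophil-like, macrophage/monocyte-like and dendritic-like cells lay between 0 and 2.19 CPM. No T/NK-like cell had a UMI, 0 of 531 and 0 of 484 cells, which, by the limit of 3 counts, allows a share of cells with a UMI of up to 0.565% and 0.620%. By contrast 42.4% and 36.0% of the PSC/fibroblast-like cells had one, or 11.5% and 12.3% after thinning. The PSC/fibroblast-like UMIs were uneven, since the 10 highest cells held 46.3% of them in FLOX and 30.2% in the other.

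Tgfb3 was past 1.5-fold lower in the library labelled MCT1-KO in both of the larger classes that expressed it. Tumour/ductal-like cells held 30.0 CPM (1021 UMIs) in FLOX and 15.6 CPM (848 UMIs) in the other, a ratio of 0.518 (0.473 to 0.568). In this class macrophage markers summed to 970 and 431 CPM and PSC and fibroblast markers to 2301 and 1483 CPM. Their part in the Tgfb3 ratio was not tested. Macrophage/monocyte-like cells held 45.5 and 25.4 CPM, a ratio of 0.558 (0.486 to 0.639), and PSC/fibroblast-like cells 38.7 and 28.1 CPM, a ratio of 0.726 (0.529 to 0.997), short of 1.5-fold. Macrophage/monocyte-like cells stood above tumour/ductal-like cells beyond counting error in both libraries, and PSC/fibroblast-like cells could not be ordered against macrophage/monocyte-like cells in either. The other classes held between 3.29 and 13.6 CPM from 14 UMIs or fewer in a library. In the tumour/ductal-like clusters 0, 6, 7 and 8 the ratios were 0.524, 0.382, 0.611 and 0.567, with upper bounds from 0.517 to 0.840. In cluster 15, with 55 and 37 UMIs, the ratio was 0.649 and its interval (0.416 to 1.002) just includes no difference. The near-empty barcodes of 10 to 100 UMIs, which hold free RNA and debris, moved by a like amount, from 26.1 to 14.4 CPM, a ratio of 0.551 (0.486 to 0.624). Where the classes were rebuilt by merging the libraries without integration, the tumour/ductal-like ratio was 0.731 and no longer past 1.5-fold. That of Tgfbr3 in the same class became 1.72. Several clusters then split by library. A cluster of 1232 FLOX and 49 MCT1-KO cells, led by Dcn and Enpp2, stayed unnamed, while a tumour/ductal-like cluster held 186 and 2069 cells. The ratios after merging therefore compare unlike sets of cells.

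Inhba was highest in tumour/ductal-like cells, with 286 CPM (9723 UMIs) in FLOX and 252 CPM (13711 UMIs) in the library labelled MCT1-KO, a ratio of 0.880 (0.857 to 0.903). At 1000 UMIs a cell, 21.9% and 18.3% of these cells had an Inhba UMI (66.2% and 67.7% unthinned, at median depths of 16454 and 15981 UMIs). In T/NK-like cells the share was 1.39% and 1.35% after thinning and 4.71% and 2.69% before it, at median depths of 2999 and 2446.5 UMIs. Neutrophil-like cells followed with 178 and 118 CPM, a ratio of 0.666 (0.525 to 0.840) that is barely past 1.5-fold, and PSC/fibroblast-like cells with 139 and 51.5 CPM. Neutrophil-like cells stood above PSC/fibroblast-like cells beyond counting error in the library labelled MCT1-KO, while in FLOX their intervals overlapped. Both classes stood above macrophage/monocyte-like cells, at 28.7 and 35.3 CPM. In the neutrophil-like cells acinar genes summed to 189 and 6362 CPM, immediate-early genes to 11912 and 5719 CPM and macrophage markers to 3166 and 1916 CPM, and their part in the Inhba ratio was not tested. The ratio in macrophage/monocyte-like cells, 1.23, was not stable: it was 0.684 without the upper gene limit, 0.737 without the highest doublet scores, 0.829 without mixed or shallow sub-clusters and 5.34 with free RNA subtracted. Dendritic-like cells (10.2 and 21.6 CPM) and endothelial-like cells (18.2 and 4.39 CPM) had only 2 to 15 UMIs in a library and could not be ordered against T/NK-like cells.

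Within the tumour/ductal-like cells Inhba was not even. Its highest level was in cluster 6 (656 and 495 cells, led by Srxn1 and Areg, with a median of only 3879 UMIs), at 379 and 503 CPM, a ratio of 1.33 (1.23 to 1.44). In the same cluster the macrophage gene C1qa stood at 302 and 28.2 CPM, the collagen gene Col1a1 at 193 and 66.5 CPM and the cycling gene Mki67 at 49.8 and 8.40 CPM, and their part in the Inhba ratio was not tested. Cluster 0 (1012 and 1673 cells), which also expressed the cytokine Il11, held 329 and 305 CPM. The cycling cluster 7, led by Ube2c and Mki67, held 147 and 116 CPM. In cluster 8 (365 and 726 cells), led by the ductal keratins Krt19 and Krt7 and the glycolytic gene Pgk1, the level was 234 CPM in FLOX and 127 CPM in the other, a ratio of 0.542 (0.507 to 0.579). Cluster 15 (116 and 140 cells), led by the interferon-induced genes Cxcl9, Cxcl10 and Gbp5, went the other way, from 184 to 295 CPM, a ratio of 1.61 (1.41 to 1.83). Inhba was thus nearly level over the class while single clusters of it moved in opposite directions, and the difference between clusters was not tested. Over the whole class macrophage markers summed to 970 and 431 CPM, and PSC and fibroblast markers to 2301 and 1483 CPM. Their part in the ratios of clusters 8 and 15 was not tested.

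Inhba in T/NK-like cells showed how a few cells can set a value. The class held 17.1 CPM (35 UMIs) in FLOX and 46.9 CPM (75 UMIs) in the library labelled MCT1-KO, a ratio of 2.75 (1.81 to 4.23). The 10 highest cells held 96.0% of those 75 UMIs, and 1 cell held 30 of them. Sub-cluster 4 of the class, which also carried tumour, neutrophil and acinar genes, held 67 of the 75. In the whole class the tumour/ductal marker list summed to 156 and 311 CPM, with 8 and 9 of 12 markers detected and Slurp1 and Cldn4 at 0 in both. Without the mixed or shallow sub-clusters the ratio was 0.424.

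Tgfbr1, the signalling receptor, was highest in macrophage/monocyte-like cells, at 225 and 207 CPM. T/NK-like cells, at 39.996 and 41.9 CPM, came last and were not apart from endothelial-like cells, at 65.1 and 63.6 CPM. Tumour/ductal-like cells held 117 and 107 CPM and PSC/fibroblast-like cells 131 and 94.0 CPM. The last pair gave a ratio of 0.717 (0.605 to 0.849), short of 1.5-fold. Neutrophil-like cells held 76.7 and 99.8 CPM and dendritic-like cells 79.6 and 60.6 CPM.

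Among the 7 classes compared, Tgfbr2, which binds the ligand, was highest in PSC/fibroblast-like cells (199 and 145 CPM), in T/NK-like cells (174 and 141 CPM) and in endothelial-like cells (133 and 145 CPM), and these 3 classes could not be ordered. It was lower in the library labelled MCT1-KO in PSC/fibroblast-like cells, with a ratio of 0.731 (0.638 to 0.838), in macrophage/monocyte-like cells, with 0.787 (0.732 to 0.847), and in T/NK-like cells, with 0.810 (0.682 to 0.959). None of these was past 1.5-fold as reported, but each was under some other way of processing the data. Over those ways the ratios spanned 0.583 to 0.938, 0.648 to 0.839 and 0.619 to 0.886, in the same order. Tumour/ductal-like cells held 61.2 and 55.6 CPM and neutrophil-like cells 65.2 and 75.7 CPM. Dendritic-like cells came last with 49.95 and 33.2 CPM from 59 and 23 UMIs, and their ratio of 0.664, just past 1.5-fold, had an interval (0.391 to 1.09) that includes no difference.

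Tgfbr3, the coreceptor, was highest in PSC/fibroblast-like cells, at 179 and 233 CPM, a ratio of 1.30 (1.14 to 1.47). Endothelial-like and tumour/ductal-like cells came next. Tumour/ductal-like cells held 40.7 and 42.5 CPM. In endothelial-like cells it stood at 45.4 CPM (30 UMIs) and 138 CPM (63 UMIs), a ratio of 3.04 (1.94 to 4.87). The share of these cells with a Tgfbr3 UMI was 18.3% and 23.4%, or 6.45% and 10.4% after thinning. Other lists in the same 120 and 145 cells differed as well: erythroid genes summed to 3.03 and 933 CPM, acinar genes to 62.1 and 1633 CPM, macrophage markers to 3288 and 1536 CPM and heat shock genes to 2071 and 391 CPM, while PSC and fibroblast markers stood at 5455 and 5173 CPM. Their part in the Tgfbr3 ratio was not tested. In macrophage/monocyte-like cells it was nearly absent, at 2.70 CPM (42 UMIs) in FLOX and 8.21 CPM (98 UMIs) in the other, and the ratio of 3.05 (2.10 to 4.48) rested on few cells. Sub-cluster 9, whose leading genes Enpp2, Fst and Tiam2 also lead tumour/ductal-like cells, held 71 of those 98 UMIs. Without the mixed or shallow sub-clusters the macrophage/monocyte-like ratio was 0.986.

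**Figure D2:**
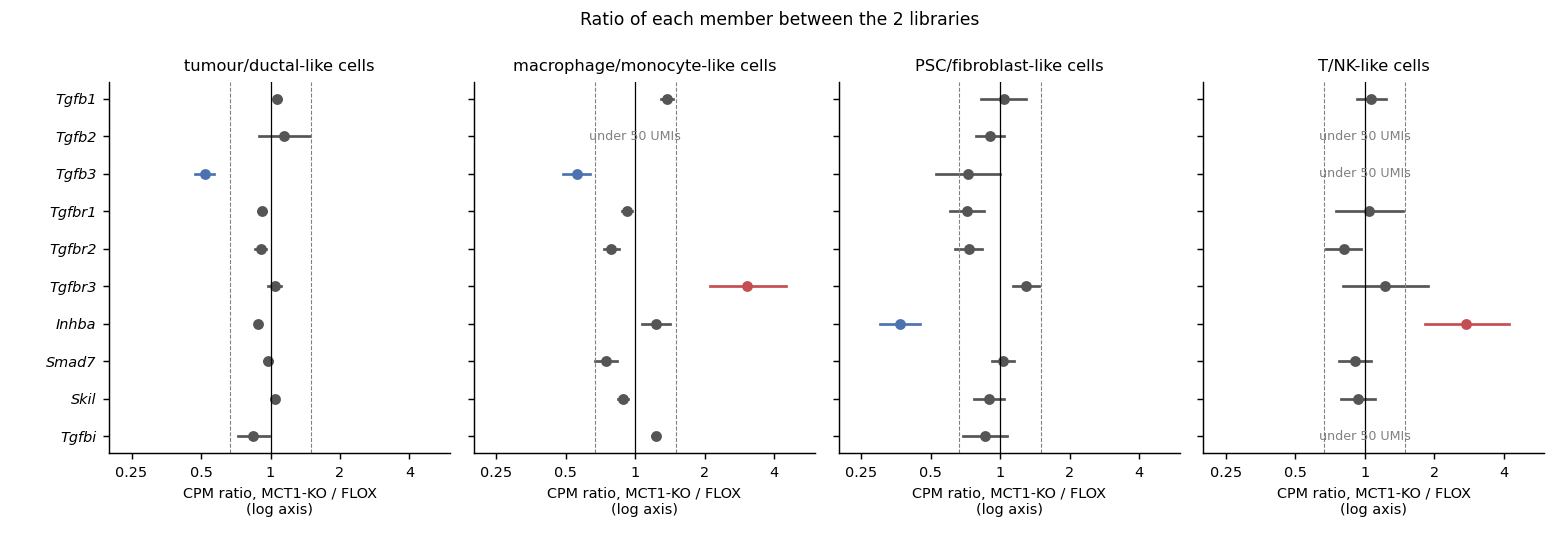
Ratio of each gene's CPM (MCT1-KO over FLOX, log axis) in the 4 main classes, drawn where both libraries together held 50 UMIs or more, with the 95% counting interval and lines at 1.5-fold in either direction. Tgfb3 lies to the left in tumour/ductal-like and macrophage/monocyte-like cells, Inhba in PSC/fibroblast-like cells, and most other points lie between the lines.

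Smad7, the inhibitory SMAD, was highest in PSC/fibroblast-like cells (257 and 265 CPM), then in T/NK-like cells (183 and 167 CPM), then in tumour/ductal-like cells (137 and 133 CPM), each above the next class beyond counting error in both libraries. In PSC/fibroblast-like cells its ratio was 1.03 (0.924 to 1.15). The remaining classes, from endothelial-like cells (77.2 and 79.0 CPM) down to macrophage/monocyte-like cells (60.5 and 45.2 CPM), could not be ordered. In the last of these the ratio was 0.747 (0.671 to 0.832).

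Skil, which encodes the SMAD repressor SnoN, had its highest level in neutrophil-like cells, at 495 and 497 CPM, a ratio of 1.00. Macrophage/monocyte-like cells held 230 and 204 CPM, and their sub-cluster 5, led by the inflammatory genes Tnf, Il10 and Acod1, held 352 CPM over both libraries. Tumour/ductal-like cells held 167 and 174 CPM, and endothelial-like cells came last with 92.3 and 96.6 CPM. Skil had 50 UMIs in all 7 classes and was past 1.5-fold in none of them, the farthest being dendritic-like cells with 141 and 208 CPM, a ratio of 1.477 (1.17 to 1.86).

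Tgfbi was a macrophage gene in these tumours. Macrophage/monocyte-like cells held 398 CPM in FLOX and 488 CPM in the library labelled MCT1-KO, a ratio of 1.23 (1.18 to 1.27) that spanned 0.956 (free RNA subtracted) to 1.425 (sub-clusters weighed equally) over the alternatives, and tumour/ductal-like cells, which came last, 8.51 and 7.14 CPM (a ratio of 0.840, or 0.460 as a mean over cells). Neutrophil-like cells held 85.1 and 115 CPM, and the near-empty barcodes of 10 to 100 UMIs held 86.6 and 79.6 CPM. What part of the neutrophil-like level is free RNA was not tested. PSC/fibroblast-like cells held 72.2 and 62.2 CPM, less than the near-empty barcodes, so Tgfbi in them is not set apart from free RNA. The 10 highest of these cells held 67.3% of their FLOX UMIs, against 33.3% in the other library. Their ratio of 0.862 became 0.608 without the highest doublet scores and 0.476 without mixed or shallow sub-clusters, both past 1.5-fold. After thinning, 27.96% and 36.0% of macrophage/monocyte-like cells had a Tgfbi UMI (66.4% and 77.4% unthinned), against 1.195% and 1.13% of T/NK-like cells (3.77% and 2.27% unthinned). Among macrophage/monocyte-like sub-clusters the monocyte-like one (236 and 222 cells, led by Chil3 and Arg1) held 658 and 616 CPM, a ratio of 0.937. In sub-cluster 0, led by heat shock and MHC class II genes, the level went from 300.2 to 454 CPM, a ratio of 1.51, and in the one led by F13a1 and Pf4 from 298 to 536 CPM, a ratio of 1.80. Dendritic-like cells held 73.7 and 157 CPM, a ratio of 2.13 (1.59 to 2.86), while the dendritic marker list there summed to 1411 and 818 CPM and the macrophage list to 2068 and 1579 CPM. Whether the makeup of that class moved its Tgfbi level was not tested.

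Counted over the 10 genes, few were past 1.5-fold in any of the 7 classes. In tumour/ductal-like cells, where all 10 had 50 UMIs, 0 were higher and 1 (Tgfb3) was lower, and over all 13215 genes 5.55% were higher and 8.58% lower. PSC/fibroblast-like cells had 0 higher and 1 (Inhba) lower of 10, against 10% and 11.5% of 8339 genes. In macrophage/monocyte-like cells 1 (Tgfbr3) was higher and 1 (Tgfb3) lower of 9, against 9.2% and 8.99% of 11442 genes. T/NK-like cells had 1 (Inhba) higher and 0 lower of 7, against 7.37% and 9.47% of 7209 genes. Endothelial-like cells had 1 of 6 higher (background 7.22%), neutrophil-like cells 1 of 7 lower (background 10.3%), and dendritic-like cells 1 of 6 higher and 1 lower (background 9.43% and 13%). In none of these 7 classes was more than 1 of the genes past 1.5-fold in the same direction. Smaller differences were more common: in PSC/fibroblast-like cells Tgfb3, Tgfbr1 and Tgfbr2 had ratios of 0.717 to 0.731 whose intervals lay below 1. The median log2 ratio of the 10 genes in PSC/fibroblast-like cells was -0.19 against -0.04 for all genes, and in tumour/ductal-like cells -0.08 against 0.01.

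PSC/fibroblast-like cells, the class the deletion was aimed at, differed between the libraries most in Inhba among the 10 genes. The level was 139 CPM (295 UMIs in 217 cells) in FLOX and 51.5 CPM (154 UMIs in 397 cells) in the library labelled MCT1-KO, a ratio of 0.370 (0.303 to 0.451). Over 12 other ways of processing the data that ratio spanned 0.237 to 0.594. The near-empty barcodes of 10 to 100 UMIs held Inhba at 68.5 and 55.0 CPM. The level in the library labelled MCT1-KO is thus not set apart from free RNA. The share of cells with an Inhba UMI was 30.0% and 15.1%, or 6.77% and 3.90% after thinning. In the FLOX library 58.3% of the UMIs came from the 10 highest cells, and in the other 50%. The class also differed in what else it held: macrophage markers summed to 2695 and 4755 CPM, adipocyte markers to 0.944 and 1078 CPM, islet markers to 375 and 6.36 CPM, acinar genes to 107 and 1795 CPM, tumour/ductal markers to 204 and 324 CPM, and heat shock genes to 2451 and 891 CPM. Without the shallow, macrophage-rich and adipocyte-like sub-clusters together the Inhba ratio was 0.309, and the part of the islet, acinar, tumour/ductal and heat shock differences was not tested.

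The class split into 6 sub-clusters, and 3 of them took names of fibroblast or mesothelial cells. Inflammatory-type-like cells (sub-cluster 0) made up 30.4% of the class in FLOX and 33.8% in the other, and mesothelial-like cells (sub-cluster 1) 19.4% and 21.9%. Myofibroblastic-like cells (sub-cluster 3) were 28.1% (22.2 to 34.6) in the FLOX library, 61 of 217 cells, and 10.1% (7.30 to 13.5) in the library labelled MCT1-KO, 40 of 397 cells. The others were a shallow sub-cluster with a median of 1000 UMIs, one with macrophage genes (12 and 48 cells) and one of 13 adipocyte-like cells found in the library labelled MCT1-KO only. Sub-cluster sizes depend on genes that differ between the libraries, so they are given as a description.

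Inhba was lower in each of the 3 named sub-clusters. It went from 81.7 to 12.1 CPM in inflammatory-type-like cells, a ratio of 0.149 (0.0704 to 0.286), from 125 to 67.0 CPM in mesothelial-like cells, a ratio of 0.534 (0.373 to 0.763), and from 263 to 80.7 CPM in myofibroblastic-like cells, a ratio of 0.307 (0.204 to 0.448). The difference was thus present in each of these sub-clusters as drawn, beside the smaller share of myofibroblastic-like cells. Those cells had the highest Inhba level in the FLOX library. Whether the mix of cells within a sub-cluster differed between the libraries was not tested. Fst, the activin trap, was higher in the first pair, from 74.8 to 138 CPM in inflammatory-type-like cells and from 77.7 to 135 CPM in mesothelial-like cells, and stood at 211 and 222 CPM in myofibroblastic-like cells, a ratio of 1.06 (0.799 to 1.39). Fst is also a leading gene of tumour/ductal-like cluster 0, and the tumour/ductal list in the PSC/fibroblast-like class summed to 204 and 324 CPM; its part in the Fst values was not tested.

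Other genes of the axis did not move together across these sub-clusters. Tgfbi went from 59.6 to 11.04 CPM in inflammatory-type-like cells, a ratio of 0.185 (0.0831 to 0.375), and from 117 to 41.8 CPM in mesothelial-like cells, a ratio of 0.358. In myofibroblastic-like cells it was 32.9 and 58.7 CPM, a ratio of 1.78 whose interval (0.944 to 3.40) includes no difference. Tgfb2 was highest in myofibroblastic-like cells, at 247 CPM in FLOX and 379 CPM in the other, a ratio of 1.54 (1.22 to 1.94). Mesothelial-like cells held it at 210 and 159 CPM, and inflammatory-type-like cells at 87.3 and 101 CPM. Tgfbr3 showed the reverse order, with 324 and 385 CPM in inflammatory-type-like cells and 19.7 and 95.3 CPM in myofibroblastic-like cells, where the ratio was 4.83 (2.48 to 10.1). Smad7 in myofibroblastic-like cells was 286 and 418 CPM, a ratio of 1.46 (1.18 to 1.81).

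**Figure D3:**
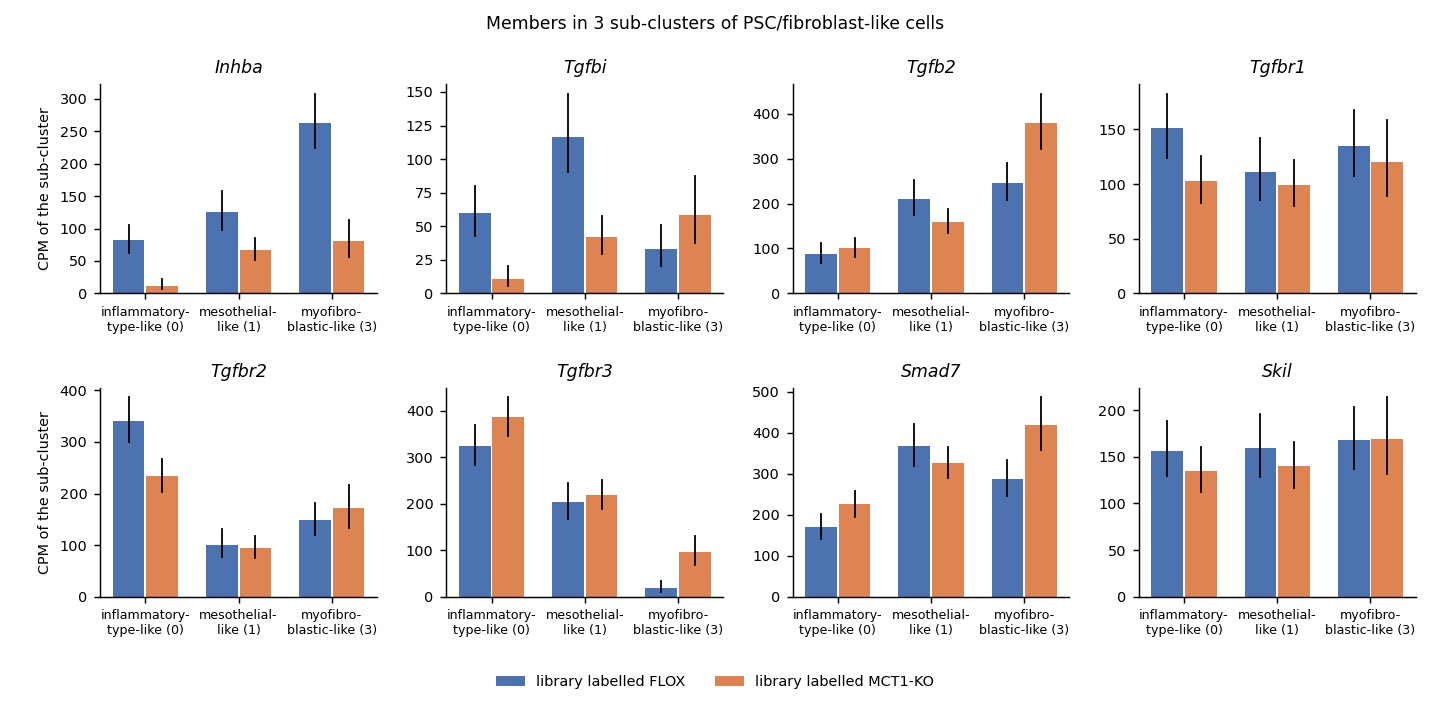
Bars give the CPM of 8 of the genes in the inflammatory-type-like, mesothelial-like and myofibroblastic-like sub-clusters of PSC/fibroblast-like cells, FLOX beside MCT1-KO, with lines for the 95% counting interval. Inhba is lower in the library labelled MCT1-KO in all 3, while Tgfb2 and Tgfbr3 are higher in the myofibroblastic-like cells.

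Genes that TGF-beta is known to induce in mesenchymal cells were also listed, and TGF-beta signalling itself was not measured. The list was chosen with earlier results of these data known, so its counts beside those of all genes are a description only. Of 17 such genes, 16 had 50 UMIs in PSC/fibroblast-like cells, and 0 of these were higher and 10 lower in the library labelled MCT1-KO (10% and 11.5% of all genes). The markers of the class itself moved too, since the PSC and fibroblast list summed to 37985 and 26403 CPM while macrophage markers went from 2695 to 4755 CPM. The median log2 ratio of the 16 target genes was -0.80 against -0.04 for all genes. Ltbp2, which tethers matrix fibres and also stands in the list of latency genes, went from 119 to 16.1 CPM, a ratio of 0.134 (0.0967 to 0.184). Itga11, a collagen-binding integrin, went from 22.7 to 4.35 CPM (ratio 0.192), and Tagln, an actin-binding protein of contractile cells, from 805 to 205 CPM (ratio 0.255). The matrix genes Fn1 and Postn went from 1519 to 724 CPM and from 243 to 99.04 CPM, and Ccn2 from 69.9 to 33.5 CPM. Id1, an inhibitor of differentiation, was not past 1.5-fold in the class, with a ratio of 1.30. Cdkn1a, Tgm2, Id3 and Jag1 were not past it either, with ratios of 0.941, 0.910, 0.674 and 1.28. Smad7 and Skil, which the pathway can induce too, had ratios of 1.03 and 0.894 in these cells, and Tgfbi 0.862.

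The same list was read within sub-clusters, because Tagln and Postn also name myofibroblastic-like cells and that sub-cluster differed in size. Of the genes with 50 UMIs, 7 of 13 were lower and 1 higher in inflammatory-type-like cells (18.6% and 11.6% of all genes there), and 7 of 9 lower and 0 higher in mesothelial-like cells (11.7% and 12.7%). In myofibroblastic-like cells 4 of 12 were lower and 1 higher (14.3% and 9.43%), with a median log2 ratio of -0.35. Without the shallow, macrophage-rich and adipocyte-like sub-clusters 10 of 16 were lower and 0 higher (11.7% and 9.51%). Acta2, the smooth muscle actin of myofibroblasts, went from 830 to 93.9 CPM in inflammatory-type-like cells, from 348 to 144 CPM in mesothelial-like cells and from 1523 to 804 CPM in myofibroblastic-like cells. The listed gene counted as higher was Id1, at 55.4 and 118 CPM in inflammatory-type-like cells and at 183 and 345 CPM in myofibroblastic-like cells. So many of these genes were lower in the other named sub-clusters too. In FLOX, though, inflammatory-type-like cells held Tagln at 478 CPM. Their Postn, at 398 CPM, was above the 347 CPM of myofibroblastic-like cells there. A difference within cells therefore cannot be told apart from a different mix of cells in these sub-clusters.

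**Figure D4:**
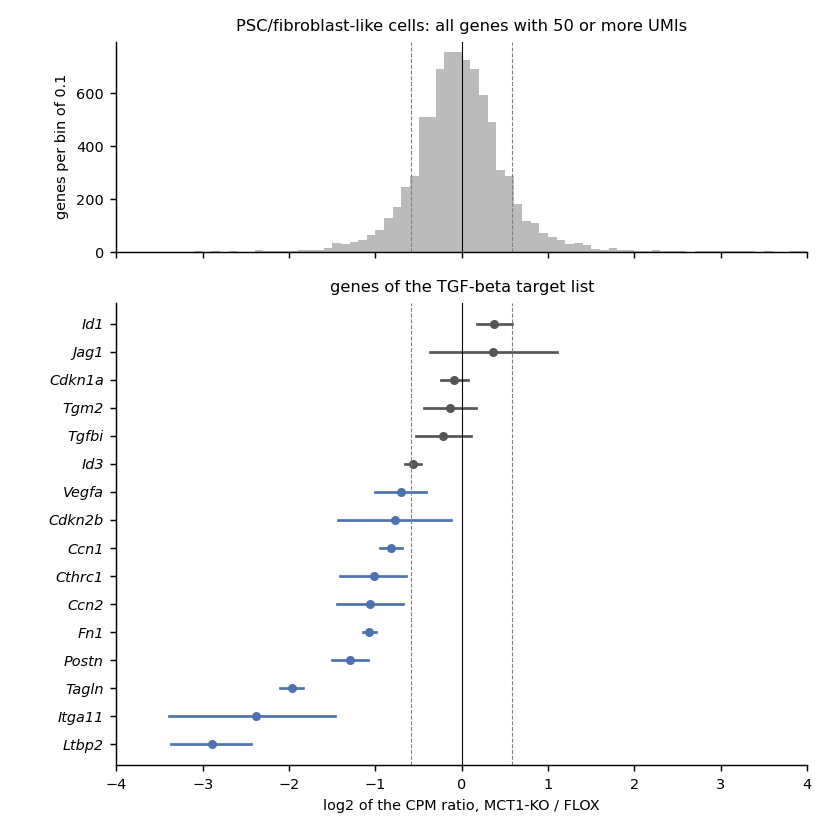
Log2 ratio (MCT1-KO over FLOX) in PSC/fibroblast-like cells, as a histogram of all genes with 50 UMIs or more (top) and for 15 of the TGF-beta target genes and Tgfbi with the 95% counting interval (bottom), with dashed lines at 1.5-fold. Of these 15 genes, 10 lie left of the lower line and 0 right of the upper one, and Tgfbi lies between the lines. The list was chosen with earlier results of these data known.

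The remaining genes of the pathway, 56 in all with the target genes, were counted in the 4 main classes. In PSC/fibroblast-like cells 45 had 50 UMIs, with 7 higher and 14 lower (10% and 11.5% of all genes). Higher were the activin receptor genes Acvr2a, at 8.50 and 15.4 CPM (ratio 1.81, 1.03 to 3.32), and Acvr1b, at 8.50 and 15.1 CPM, the SMAD corepressor gene Tgif1, at 36.8 and 70.6 CPM, Smad3, at 43.4 and 65.9 CPM, and the activin subunit Inhbb, at 43.0 and 65.9 CPM. Macrophage, tumour/ductal and acinar lists were also higher in this class, and their part in these values was not tested. Without the shallow, macrophage-rich and adipocyte-like sub-clusters only the target and latency lists were recounted, not the genes just named. The latency list then went from 2 higher and 3 lower to 0 higher and 1 lower. Fst was 121 and 169 CPM, a ratio of 1.40.

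In tumour/ductal-like cells 45 had 50 UMIs, with 1 higher and 12 lower (5.55% and 8.58% of all genes). The gene past 1.5-fold upwards was Cdkn1a, a cell cycle inhibitor, at 138 and 221 CPM (ratio 1.60), and Smad3 and Ltbp1 came next with ratios of 1.38 and 1.35. Lowest were the endothelial receptor gene Acvrl1, at 1.53 and 0.367 CPM, Inhbb, at 6.98 and 2.30 CPM (ratio 0.329, 0.263 to 0.410), and Nrros, a latency gene of myeloid cells, at 2.30 and 0.973 CPM. In this class the macrophage list summed to 970.5 and 431 CPM and the endothelial list to 29.4 and 31.6 CPM. Their part in these ratios was not tested.

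In macrophage/monocyte-like cells 37 had 50 UMIs, with 3 higher and 5 lower (9.2% and 8.99% of all genes). Itgav, a subunit of the integrins that free latent TGF-beta, went from 427 to 223 CPM (ratio 0.522) and Vegfa from 113 to 57.0 CPM (ratio 0.503). Fst and Ltbp1, at 50.1 and 105 CPM and at 20.9 and 41.2 CPM, were higher, and the tumour/ductal list summed to 166 and 280 CPM in the same cells. In T/NK-like cells 24 had 50 UMIs, with 10 higher and 2 lower (7.37% and 9.47% of all genes). Among the higher ones were Dcn, a proteoglycan, at 39.5 and 90.0 CPM, and Ltbp1, at 16.1 and 33.7 CPM. There acinar genes summed to 134 and 2703 CPM, the tumour/ductal list to 156 and 311 CPM and the PSC and fibroblast list to 228 and 255 CPM. The part of these lists was not tested. The lower ones were Tgm2, at 17.6 and 9.37 CPM, and Itgb8, at 33.2 and 21.2 CPM. Itgb8 was highest in the small regulatory-like T sub-cluster (24 and 21 cells), at 309 CPM over both libraries, where Lrrc32, the surface anchor of latent TGF-beta, stood at 56.9 CPM.

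The genes closest in pattern to each of the 10 were found by Pearson's r of log2 CPM over 14 points (7 classes in 2 libraries), among 12699 genes. The points share libraries and depth, so r is a description only. Tgfb2 was followed most closely by Hspb8 (0.975), Pcdh7 (0.973) and Ptprn (0.968), Inhba by Pih1d2 (0.929), Cldn7 (0.928) and Mid1ip1 (0.925), and Tgfbi by the Fc receptor genes Fcgr2b (0.952) and Fcgr4 (0.945) and by Ifih1 (0.941). For the other ligands the closest were Bub3 (0.907) for Tgfb1 and Mmp13 (0.941) for Tgfb3. For the receptors they were Lamp1 (0.911) for Tgfbr1, Nudt7 (0.922) for Tgfbr2 and Lgalsl (0.948) for Tgfbr3. Smad7 was closest to Eya2 (0.936) and Skil to AI839979 (0.952).

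**Figure D5:**
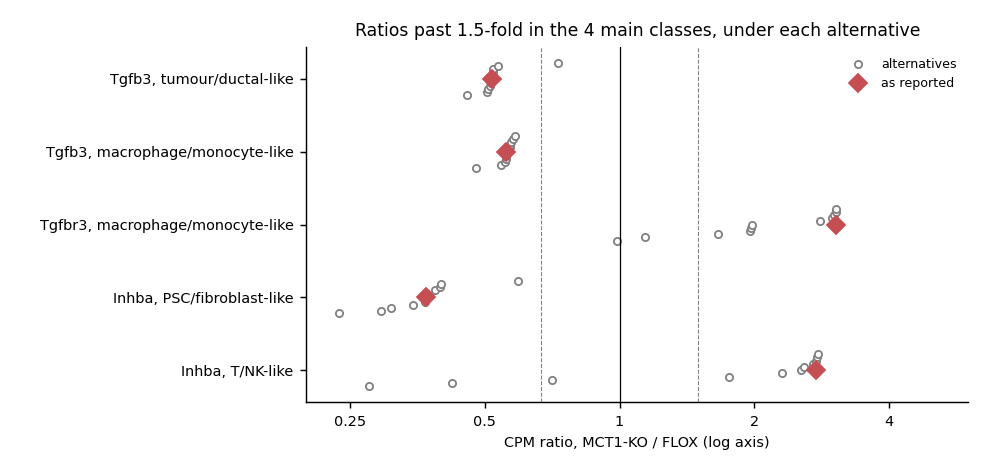
Ratios past 1.5-fold in the 4 main classes (MCT1-KO over FLOX, log axis), with an open point for each other way of processing the data and a red diamond for the value as reported. Tgfb3 in macrophage/monocyte-like cells and Inhba in PSC/fibroblast-like cells stay below 1 throughout, while Inhba in T/NK-like cells spans 0.277 to 2.77 and Tgfbr3 in macrophage/monocyte-like cells 0.986 to 3.04.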

How the data were processed

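Unsorted live cells of 1 tumour library per group were profiled with a 3′ single-cell kit (the labels and the study's methods name different SeekOne or Chromium kits). According to the submitters' processing notes the authors used Seurat 4.0.0 and the human build GRCh38, but the deposited matrices list mouse genes, and no source used here names the mouse build or annotation they were counted on. The deposited values are raw UMI counts for every barcode, totalling 177334432 for FLOX and 151118092 for the library labelled MCT1-KO. Barcodes with 500 UMIs or more, 200 to 5000 genes and up to 8% mitochondrial UMIs were kept.

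Cells were clustered with Seurat 5.3.0 (R 4.3.3) after integration of the libraries by canonical correlation, on 2000 variable genes without the 10 genes or other pathway genes, 20 dimensions and resolution 0.8. Clusters were named from marker lists, with naming thresholds set after the clusters were seen, so classes may differ from the study's own. Sub-clusters used 15 dimensions and resolution 0.5. Doublets were not removed in the values reported, and leaving out the 8% of barcodes with the highest doublet scores was 1 of the alternatives. Counts were summed per library and class and given as CPM. Intervals are exact (Poisson, conditional for ratios, Clopper-Pearson for shares). Those of ratios were tried on simulated Poisson counts, which hold no spread between cells. Share comparisons used cells thinned to 1000 UMIs, leaving out shallower cells. With 1 library per group no test between groups was made and no p-value is given. Named genes were the 10 genes, the 3 pathway genes with the largest and the 3 with the smallest ratio in each main class, and the 3 closest in pattern; any other gene named was chosen after its values were seen. The genes and lists were chosen with earlier results of these data known. RefSeq promoter windows (GRCm38.p6) were found for 6 of the 10 genes. Values of some listed genes are not reported here.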

Additional observations from a re-analysis of the deposited data

Results flagged for a closer look

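Inhba differed in opposite directions between classes under the same contrast, and the difference between classes was not tested. Its ratio of the library labelled MCT1-KO to the FLOX library was 2.75 in T/NK-like cells, 0.370 in PSC/fibroblast-like cells and 0.666 in neutrophil-like cells, where it was barely past 1.5-fold and acinar genes went from 189 to 6362 CPM. The T/NK-like value rested on 75 UMIs, of which 67 lay in a sub-cluster that also carried tumour genes, and it turned to 0.424 without mixed sub-clusters. Within tumour/ductal-like cells the Inhba ratio was 1.61 in cluster 15, led by interferon-induced genes, and 0.542 in cluster 8, led by ductal keratins, with the difference again not tested. Over that whole class macrophage markers summed to 970 and 431 CPM, and PSC and fibroblast markers to 2301 and 1483 CPM. Their part in the cluster ratios was not tested.

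Tgfbi went in opposite directions within PSC/fibroblast-like cells: the ratio was 0.185 in inflammatory-type-like cells, 0.358 in mesothelial-like cells and 1.84 in sub-cluster 4, which carried macrophage genes. These differences were not tested.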

How the results depend on the processing

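The 10 genes' ratios in the 4 main classes were recomputed under 12 alternatives, which gave 429 values; those in endothelial-like, dendritic-like and neutrophil-like cells were not. Of these, 343 moved by less than the counting interval, 82 moved beyond it and 4 were ratios past 1.5-fold as reported that changed direction. Subtracting free RNA moved 24 of 33 beyond it, and took a larger estimated share from FLOX than from the other library. Each of 4 alternatives (at least 1000 UMIs, another mitochondrial limit, resolution 0.4 and the reduced total) moved 0 of 36. The reduced total changes only the denominator, and by little. Of the 4 ratios that changed direction, 1 was Tgfbr3 in macrophage/monocyte-like cells, at 0.986 without mixed or shallow sub-clusters. The others were Inhba in T/NK-like cells, at 0.277 without the highest doublet scores, 0.424 without mixed or shallow sub-clusters and 0.706 as a mean over cells. Ratios short of 1.5-fold crossed 1 too and stand among the 82 or 343, with the widest range for Inhba in macrophage/monocyte-like cells, 0.684 to 5.34. The alternatives without mixed or shallow sub-clusters and with sub-clusters weighed equally were chosen after seeing the data.

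The number of the 10 genes past 1.5-fold was 1 in tumour/ductal-like cells, and became 2 with the mean over cells or free RNA subtracted and 0 past 2-fold. It stayed 1 when merged without integration, but with Tgfbr3 (1.72) in place of Tgfb3 (0.731). Several clusters split by library in that setting, so the class then compared unlike sets of cells. In macrophage/monocyte-like cells it was 2, and became 5 with free RNA subtracted and 1 past 2-fold. In PSC/fibroblast-like cells it was 1, and became 2 without the highest doublet scores, without mixed sub-clusters or as a mean over cells, and 4 with free RNA subtracted. In T/NK-like cells it was 1, and became 0 without the highest doublet scores, without mixed sub-clusters or as a mean over cells, and 2 with free RNA subtracted or with a floor of 3 UMIs. The class with the highest level stayed the same for 8 to 10 of the 10 genes, and the exceptions were Tgfb3 and Tgfbr2. The causes were not tested.

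No paired analysis was possible because each group had 1 library. Without replicates, differences between animals cannot be told apart from those between groups, and in classes of few cells, such as endothelial-like cells, depth limits what is detectable.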

Other observations

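Outside the 7 classes, mural-like cells (15 and 24 cells in the FLOX library and the library labelled MCT1-KO) held Tgfb2 at 316 and 202 CPM, from few UMIs. B-like cells (32 and 179 cells) held Tgfbr2 at 373 CPM (24 UMIs) and 227 CPM (65 UMIs). An unnamed cluster of 37 and 64 cells, led by the gastric mucosa genes Tff1, Gkn1 and Tff2, held Inhba at only 41.6 and 29.0 CPM and Tgfb2 at 56.7 and 29.0 CPM, from 10 to 15 UMIs in each value. In the largest unnamed cluster (917 and 1764 cells, median 1093 UMIs) Tgfb3 stood at 26.2 and 17.2 CPM, a ratio of 0.656 (0.435 to 0.988), and Inhba at 112 and 95.6 CPM.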
